A study of Rattus norvegicus with 12 samples.

Results

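Fatty acids made inside a cell are built from acetyl-CoA, lengthened and then desaturated, and the levels of 8 genes of this route were examined in brain RNA. They were the transcription factor gene Srebf1 and the enzyme genes Acly, Acaca, Acacb, Fasn, Elovl6, Fads1 and Fads2, taken as the rows of the count table that carry these symbols. Each symbol matched 1 row, so they make up 8 of 31177 rows, or of 22050 rows that carry a rat Ensembl gene identifier. All 8 had enough counts to be tested, in a table where 18850 genes did.

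RNA from brain tissue was sequenced in 12 libraries, 4 in each of 3 groups. Sham was the control, AD a model of Alzheimer's disease, and AD-HFD that disease model together with a high-fat diet. The question stated for the study was how the disease model and metabolic stress alter the brain transcriptome, and since no libraries with the diet but without the model were analysed here, the diet was seen only within the model. The labels give no brain region, strain, age, sex or time, and no agent or transgene for the model. They speak of mice, while the organism field and the gene identifiers are those of the rat (Rattus norvegicus), and the samples are treated here as rat. Nothing in the labels says that each library came from a separate animal, so the p-values measure the spread between these libraries, which may be technical. AD-3 stands for replicate 3 of the AD group, and so on.

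As background, citrate that leaves the mitochondria is split to acetyl-CoA by ATP citrate lyase, acetyl-CoA carboxylase turns acetyl-CoA into malonyl-CoA, and fatty acid synthase joins these units into palmitate. Elongases in the endoplasmic reticulum add carbon units to the chain, and front-end desaturases place the double bonds that turn dietary essential fatty acids into the long polyunsaturated fatty acids abundant in neuronal membranes. Sterol regulatory element-binding protein 1, the product of Srebf1, is the main transcriptional activator of this route in liver. In brain, oligodendrocytes use the route heavily to make myelin lipid, and astrocytes supply lipid to neurons.

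The sequences ahead of the transcription starts are shown for Srebf1, since it encodes the regulator of the other genes, and for Fads1 and Fads2, since they are neighbours whose count ratio in AD differed from that in the other groups without overlap. They are the 250 bases before each start in RefSeq for the rat build GRCr8. RefSeq's table gave 6 such sequences for 5 of the 8 genes (Srebf1 with 2 starts, Acly, Acacb, Fads1 and Fads2). The start of Fads1 follows chr1:216252442-216252691 on the plus strand and that of Fads2 follows chr1:216172034-216172283 on the minus strand. The 2 genes are thus transcribed away from each other, with only a pseudogene between them in RefSeq. The downstream start of Srebf1, which gives the SREBP-1c form, follows chr10:45519011-45519260, and its upstream start follows chr10:45529165-45529414, both on the minus strand. All are written 5′ to 3′ along the gene, with capitals for the motifs CCAAT (the NF-Y box) and GGGCGG (the Sp1 GC box) on either strand, so that ATTGG and CCGCCC also stand in capitals.
Fads1: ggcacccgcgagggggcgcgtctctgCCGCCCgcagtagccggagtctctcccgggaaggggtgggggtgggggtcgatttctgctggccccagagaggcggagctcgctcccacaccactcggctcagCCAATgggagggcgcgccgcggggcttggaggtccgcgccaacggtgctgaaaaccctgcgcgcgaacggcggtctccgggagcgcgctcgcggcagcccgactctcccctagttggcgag
Fads2: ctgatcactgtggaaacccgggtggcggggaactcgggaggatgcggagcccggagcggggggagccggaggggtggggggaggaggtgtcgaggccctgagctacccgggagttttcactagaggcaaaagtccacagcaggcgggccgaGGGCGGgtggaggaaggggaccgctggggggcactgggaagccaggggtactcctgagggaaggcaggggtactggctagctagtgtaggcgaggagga
Srebf1, downstream start: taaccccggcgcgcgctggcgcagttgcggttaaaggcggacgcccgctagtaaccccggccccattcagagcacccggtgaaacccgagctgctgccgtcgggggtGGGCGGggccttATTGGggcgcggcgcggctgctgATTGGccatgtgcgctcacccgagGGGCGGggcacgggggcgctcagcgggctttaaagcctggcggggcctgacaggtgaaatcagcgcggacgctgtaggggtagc
Srebf1, upstream start: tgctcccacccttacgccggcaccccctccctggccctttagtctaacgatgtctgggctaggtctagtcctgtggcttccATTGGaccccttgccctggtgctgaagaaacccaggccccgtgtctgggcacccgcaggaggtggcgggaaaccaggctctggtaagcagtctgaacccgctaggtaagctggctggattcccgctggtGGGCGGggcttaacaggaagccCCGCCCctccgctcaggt

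The NF-Y box occurred 1 time before Fads1, 0 times before Fads2, 2 times before the downstream start of Srebf1 and 1 time before its upstream start. The Sp1 GC box occurred 1 time before Fads1, 1 time before Fads2 and 2 times before each Srebf1 start. Of 33469 windows of this length in the same table, 34.017% held the NF-Y box and 30.467% held the GC box, so neither is rare. The letters TCACNCCAC, a spelling of a sterol regulatory element, and CACGTG, a spelling of an E-box, were found on neither strand in any of the 6 windows. Of all windows 0.974% and 5.593% held them. Other spellings of either element were not searched for, so their absence from these windows was not shown. These searches describe exact letters only. Counts were deposited per gene, so the SREBP-1a and SREBP-1c forms cannot be told apart in what follows.

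The libraries held 26668974 (AD-4) to 35351792 (Sham-1) counts. Levels are given in CPM, counts scaled to a common library size by TMM, and the 8 genes had between 32 counts (Acacb in AD-HFD-3) and 10995 counts (Acly in AD-2). CPM are not scaled to gene length, so levels are compared between libraries and never between genes. Several libraries stood apart in brain region or cell type markers. Over 9 cerebral cortex markers the mean log2 CPM was 6.58 to 7.02 in Sham, 5.20 in AD-3 and 0.98 to 2.20 in the other AD libraries, which in turn had means of 4.17 to 6.34 over 10 thalamus markers against 1.20 in AD-3 and 1.53 to 2.39 in Sham. Red blood cell markers summed to 4205 CPM in AD-HFD-4 and to 160 to 361 CPM in Sham. Choroid plexus markers summed to 4718, 4601 and 10715 CPM in Sham-2, Sham-3 and AD-HFD-1 and to 539 CPM or less elsewhere. The neuron and oligodendrocyte lists had no marker at 0 in any library.

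The transcription factor gene Srebf1 (ENSRNOG00000003463) had its highest group mean in Sham. The Sham libraries held 57.9, 86.8, 88.1 and 64.9 CPM in replicates 1 to 4. The AD libraries held 67.0, 71.0, 32.1 and 52.9 CPM. The AD-HFD libraries held 48.2, 52.6, 31.1 and 60.7 CPM. The group means were 74.4 ± 15.3, 55.7 ± 17.6 and 48.2 ± 12.5 CPM (SD, n = 4), and each pair of groups overlapped. AD-3 and AD-HFD-3 were the lowest of their groups, and 5 of the 8 libraries that carry the model were below every Sham library.

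The same 2 libraries had the lowest oligodendrocyte marker means of their groups, 8.09 and 7.28 on the log2 CPM scale over 12 markers. Within Sham and within AD, the libraries stood in the same order by Srebf1 and by these markers, and in AD-HFD they did so except for replicates 1 and 2. Between groups the levels did not line up in this way. Sham-1 and Sham-4 had oligodendrocyte means of 7.87 and 8.03, below AD-3, with Srebf1 at 57.9 and 64.9 CPM against 32.1 CPM in AD-3. Sham-2 and AD-4 had nearly the same oligodendrocyte mean, 8.82 and 8.85, with Srebf1 at 86.8 and 52.9 CPM, while AD-HFD-4 had a mean of 9.48 with Srebf1 at 60.7 CPM. This arrangement was noticed after the values were seen, and the part of oligodendrocyte RNA in the level of Srebf1 was not tested. In bulk tissue, fewer cells of a type and less RNA per cell cannot be told apart.

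Acly (ENSRNOG00000016924), which encodes ATP citrate lyase, was the steadiest of the 8 genes, with a highest library only 1.56 times the lowest. In Sham it stood at 238, 205, 242 and 217 CPM. In AD it stood at 245, 321, 243 and 274 CPM. In AD-HFD it stood at 219, 216, 213 and 239 CPM. Every AD library was above every Sham and every AD-HFD library, but AD-3 at 243 CPM and Sham-3 at 242 CPM lay almost level, and AD-2 stood well above the rest. Means by group were 226 ± 17.4, 271 ± 36.3 and 222 ± 11.5 CPM (SD, n = 4) in Sham, AD and AD-HFD.

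Acaca (ENSRNOG00000034013) encodes the cytosolic acetyl-CoA carboxylase that commits acetyl units to synthesis. Sham replicates 1 to 4 held 54.1, 57.3, 44.9 and 43.4 CPM. AD replicates 1 to 4 held 66.7, 54.8, 49.0 and 48.1 CPM. AD-HFD replicates 1 to 4 held 30.3, 37.8, 35.3 and 26.6 CPM. All 4 AD-HFD libraries were lower than all 8 others, while Sham and AD overlapped. Averaged by group, the levels were 49.9 ± 6.81, 54.6 ± 8.59 and 32.5 ± 4.98 CPM (SD, n = 4).

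Acacb (ENSRNOG00000000658) encodes the carboxylase of the mitochondrial surface, whose malonyl-CoA restrains fatty acid oxidation. Its Sham levels were 4.03, 5.72, 6.19 and 3.15 CPM. Its AD levels were 5.92, 7.32, 1.23 and 4.43 CPM. Its AD-HFD levels were 3.29, 4.18, 1.00 and 3.33 CPM. It was the most variable of the 8, with a highest library 7.32 times the lowest, and AD-3 and AD-HFD-3 were low as they were for Srebf1. Mean levels were 4.77 ± 1.43, 4.73 ± 2.61 and 2.95 ± 1.36 CPM (SD, n = 4), with overlap between all groups.

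Fasn (ENSRNOG00000045636) encodes fatty acid synthase. In the Sham group, 227, 223, 239 and 203 CPM were measured. In the AD group, 300, 297, 312 and 267 CPM were measured. In the AD-HFD group, 139, 237, 243 and 165 CPM were measured. The AD libraries were above all 8 others. AD-HFD split into a pair near the Sham level, replicates 2 and 3, and a lower pair, replicates 1 and 4. Over each group the mean was 223 ± 14.8, 294 ± 19.1 and 196 ± 51.8 CPM (SD, n = 4).

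Elovl6 (ENSRNOG00000048949), the elongase that takes palmitate to stearate, was even in Sham and scattered in the groups with the model. The control libraries had 11.3, 11.0, 10.2 and 11.8 CPM. The libraries of the AD group had 18.7, 25.1, 8.55 and 13.6 CPM. The libraries of the AD-HFD group had 15.7, 9.12, 9.29 and 6.89 CPM. Of the AD libraries 3 were above every Sham library, and AD-3 was below every Sham library. The means came to 11.1 ± 0.679, 16.5 ± 7.06 and 10.2 ± 3.79 CPM (SD, n = 4).

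Fads1 (ENSRNOG00000020480) encodes the delta-5 desaturase of arachidonic and eicosapentaenoic acid synthesis. Levels in Sham were 187, 230, 209 and 195 CPM. Levels in AD were 141, 150, 113 and 95.6 CPM. Levels in AD-HFD were 200, 137, 133 and 79.3 CPM. All 4 AD libraries were below all Sham libraries, and so were 3 of the 4 AD-HFD libraries, with AD-HFD-1 inside the Sham range. Group by group, means were 205 ± 18.9, 125 ± 24.9 and 137 ± 49.5 CPM (SD, n = 4).

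Fads2 (ENSRNOG00000020440) encodes the delta-6 desaturase, the first step on the polyunsaturated route. Sham libraries ran at 52.8, 63.5, 56.0 and 51.5 CPM. AD libraries ran at 60.5, 57.0, 37.1 and 45.0 CPM. AD-HFD libraries ran at 46.6, 42.2, 42.1 and 22.4 CPM. Every AD-HFD library was below every Sham library, and AD overlapped both. As means, the groups had 56.0 ± 5.34, 49.9 ± 10.8 and 38.3 ± 10.8 CPM (SD, n = 4). AD-HFD-4 had the lowest level of the 12 libraries for Acaca, Elovl6, Fads1 and Fads2, and it also had the lowest neuron marker mean, 7.00, and the highest red blood cell mean, 6.08, on the log2 CPM scale. The part of that library's cell makeup in these 4 levels was not tested.

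**Figure D1:**
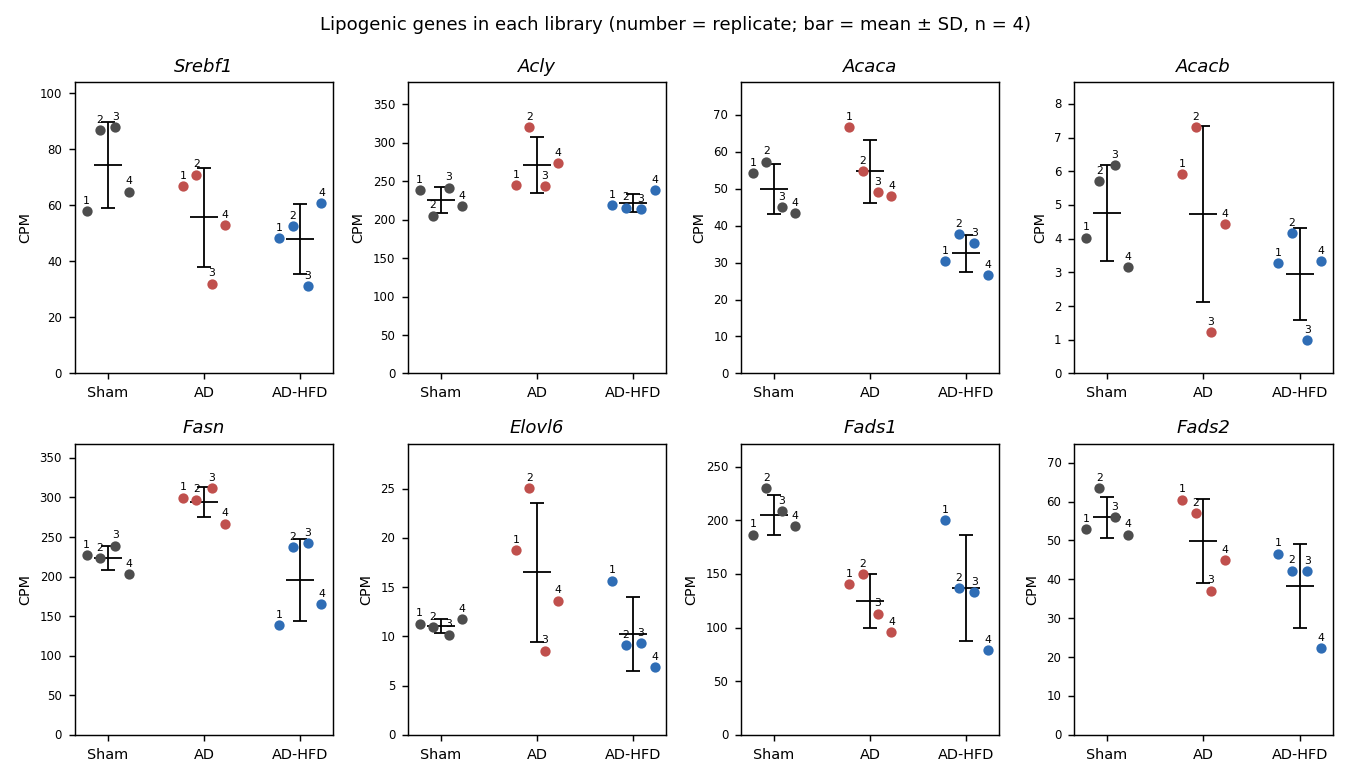
Level of each of the 8 genes in CPM (vertical axes, all from 0) in the 12 libraries. Points are libraries marked by replicate number and bars are the group mean with SD (n = 4). All AD-HFD points for Acaca, 26.6 to 37.8 CPM, lie below the Sham and AD points, and all AD points for Fasn, 267 to 312 CPM, lie above those of the other groups.

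The first comparison, AD against Sham, asked what the disease model changed. Fasn stood 0.40 ± 0.174 higher and Fads1 0.72 ± 0.240 lower on the log2 scale (SE, n = 4 a group), but neither passed the edgeR quasi-likelihood test over 18850 genes, with adjusted p of 0.190 and 0.0952. None of the 8 genes was called at an adjusted p under 0.05, while 6.23% of all tested genes were. At an unadjusted p under 0.05 there were 2, Fasn and Fads1, beside 24.0% of all genes. DESeq2 called none of the 8 beside 13.9% of all genes, and limma voom called none beside 4.74%. Acly and Fasn were higher and Fads1 lower without overlap between the groups, 3 of 8 genes beside 21.6% of all genes. The other fitted log2 changes were 0.26 ± 0.126 for Acly (adjusted p = 0.229), 0.58 ± 0.316 for Elovl6 (0.290), 0.13 ± 0.162 for Acaca (0.667), -0.01 ± 0.491 for Acacb (0.991), -0.17 ± 0.223 for Fads2 (0.691) and -0.42 ± 0.265 for Srebf1 (0.367), each from edgeR. The median of the 8 was 0.06, the same as over all tested genes (0.06), with 4 of 8 above 0.

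The region markers moved with this comparison: 6 of 10 thalamus markers were called higher and 3 of 9 cortex markers lower in AD. All 12 oligodendrocyte markers were above Sham without a call (median log2 difference 0.82). The share of counts on mitochondrial genes did not overlap either, at 12.0% to 13.7% in AD against 10.5% to 11.3% in Sham (9.02% to 10.8% in AD-HFD). The part of brain region, cell makeup and mitochondrial share in the levels of Acly, Fasn and Fads1 was not tested. AD-3, the AD library whose region markers were nearest to Sham, had 312 CPM of Fasn and 113 CPM of Fads1, both outside the Sham ranges of 203 to 239 and 187 to 230 CPM. Its astrocyte mean of 5.65 was the lowest of the 12 libraries (6.76 to 6.92 in Sham), and its cortex mean of 5.20 was still below Sham. As 1 library, AD-3 cannot test the part of region in these levels. With AD-3 as the only AD library, whose spread is then taken from the other groups, edgeR gave 0.48 for Fasn and -0.86 for Fads1 on the log2 scale. In the same fit Elovl6 and Acaca turned to -0.38 and -0.03. Acacb moved from -0.01 to -1.95, Fads2 from -0.17 to -0.60 and Srebf1 from -0.42 to -1.22. Fitted on Sham and AD alone, edgeR called Fads1 (adjusted p = 0.0216) and Fasn (0.0317), 2 of 8 beside 13.1% of all genes in that fit. It called Fads1 when AD-HFD-4 was left out of the fit of 12 (0.0339), beside 9.34% of all genes.

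The second comparison, AD-HFD against AD, asked what the diet added within the model, and it shares the AD libraries with the first. Acaca and Fasn had the smallest p among the 8, with log2 differences of -0.75 ± 0.163 and -0.58 ± 0.175 (SE, n = 4 a group). Their edgeR adjusted p were 0.0605 and 0.0693, just past the threshold. None of the 8 genes was called, and only 2 genes of the table, 0.0106%, were. Unadjusted p under 0.05 was reached by Acly, Acaca and Fasn, 3 of 8 beside 30.5% of all genes. DESeq2 called Acaca (adjusted p = 0.000911) and Fasn (0.0113), 2 of 8 beside 17.7%, and limma voom called none beside 0.0106%. The groups did not overlap for Acly, Acaca and Fasn, all lower in AD-HFD, which is 3 of 8 beside 5.46% of all tested genes. The median of the 8 was -0.48 against 0.04 over all genes, and 7 of 8 were below 0.

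Of the rest, Acly stood at -0.29 ± 0.126 (edgeR adjusted p = 0.149), Elovl6 at -0.69 ± 0.317 (0.164), Acacb at -0.68 ± 0.503 (0.372), Fads2 at -0.38 ± 0.224 (0.265), Srebf1 at -0.21 ± 0.265 (0.608) and Fads1 at 0.14 ± 0.239 (0.721). No marker list had a call in this comparison, but the medians of several brain region and cell type lists shifted by more than any of the 8 genes. In AD-HFD all 10 thalamus markers were below AD (median log2 difference -3.94) and all 9 cortex markers above it (1.30). All 10 choroid plexus markers (median 5.18) and all 5 tested red blood cell markers (2.06) were above AD, while all 10 astrocyte markers (-1.18) and 9 of 10 neuron markers (-0.77) were below it. Their part in the levels of Acaca and Fasn was not tested. Leaving out AD-3 gave edgeR calls for Acaca (adjusted p = 0.00747), Elovl6 (0.0289) and Fasn (0.0456), and leaving out AD-HFD-3 gave them for Acaca (0.0110) and Fasn (0.0143). Those fits called 30.3% and 27.6% of all genes.

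The third comparison, AD-HFD against Sham, set both factors together against the control, and it shares its groups with the other comparisons. Acaca fell by 0.62 on the log2 scale (SE 0.163, n = 4 a group, edgeR adjusted p = 0.0155) and was the only one of the 8 genes called. Of all tested genes 32.7% were called, 19.7% as higher and 12.9% as lower, so 1 of 8 is no more than the background. Acaca and Fads2 did not overlap between the groups, 2 of 8 beside 35.1% of all genes. Fads2 stood at -0.55 ± 0.224 (edgeR adjusted p = 0.0783), Fads1 at -0.58 ± 0.239 (0.0802), Srebf1 at -0.63 ± 0.266 (0.0864) and Acacb at -0.70 ± 0.503 (0.298). Closest to no difference were Acly at -0.03 ± 0.126 (0.890), Elovl6 at -0.11 ± 0.317 (0.811) and Fasn at -0.19 ± 0.174 (0.423). All 8 fitted changes were below 0, with a median of -0.56 against 0.03 over all genes.

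Neuron markers were lower in AD-HFD than in Sham, 6 of 10 by the test, with sums of 1850 to 7701 CPM against 8807 to 11285 CPM. All 5 tested red blood cell markers were called higher, as were 3 of 5 endothelial, 5 of 8 leptomeningeal fibroblast and 2 of 12 oligodendrocyte markers. All 9 cortex markers were below Sham (median log2 difference -1.52), 2 of them by the test. Their means were 3.94 to 6.44 in AD-HFD and 6.58 to 7.02 in Sham. All 10 astrocyte markers were below Sham too (median -0.70), 1 of them by the test. AD-HFD-3 was the AD-HFD library nearest to Sham in its cortex mean (6.44) and neuron mean (9.03), and its Acaca level of 35.3 CPM was below the lowest Sham level of 43.4 CPM, while its oligodendrocyte and astrocyte means, 7.28 and 6.13, were below the Sham ranges of 7.87 to 8.91 and 6.76 to 6.92. The part of brain region and cell makeup in the fall of Acaca was not tested, and 1 library cannot test it. The call was lost without Sham-1 (-0.58, adjusted p = 0.0509), without AD-HFD-3 together with AD-HFD-4 (-0.55, 0.0502), and without AD-HFD-1 together with AD-HFD-4, the libraries richest in red blood cell markers (-0.51, 0.120). Leaving out AD-HFD-1 alone called Fads1 as well (edgeR adjusted p = 0.0255), and leaving out AD-3 called Srebf1 as well (0.0375), each 2 of 8 beside 22.6% and 39.5% of all genes.

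**Figure D2:**
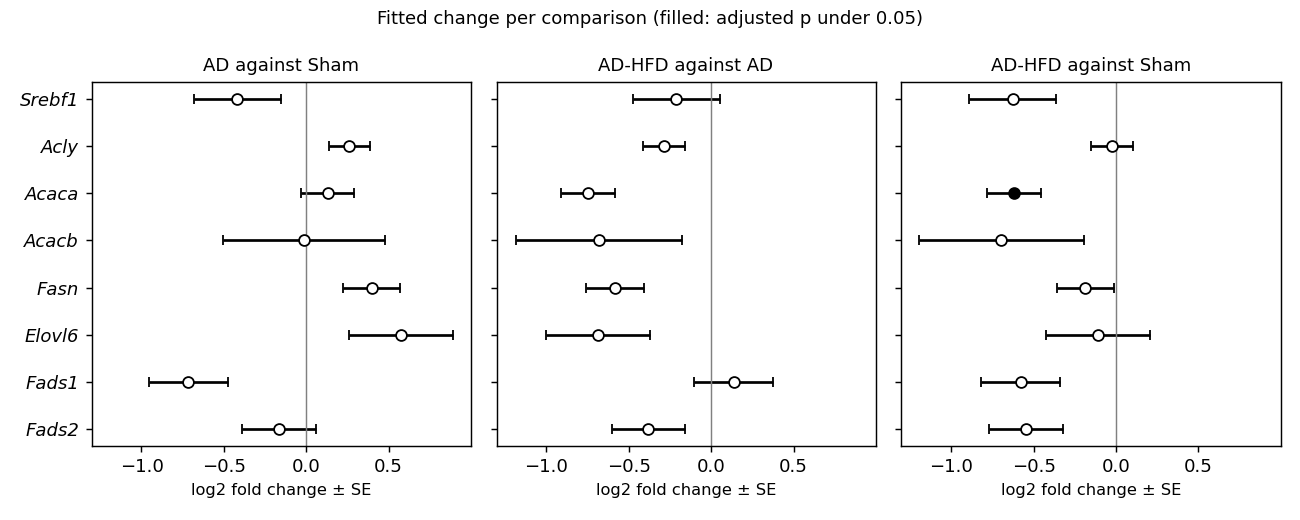
Fitted log2 fold change (horizontal axis) with its SE for the 8 genes in each comparison, from edgeR. The filled point is the only call, Acaca in AD-HFD against Sham at -0.62, and the widest bars belong to Acacb.

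**Figure D3:**
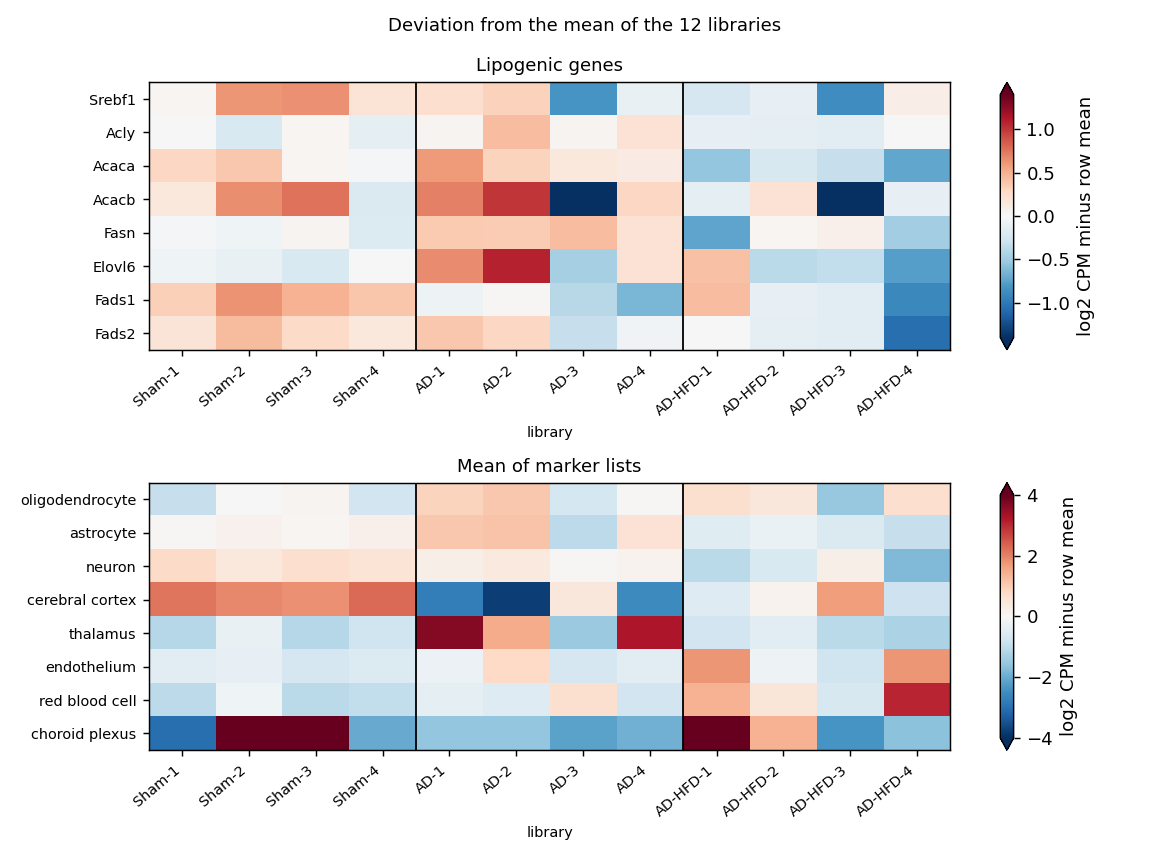
Colours give log2 CPM minus the mean of the 12 libraries for the 8 genes (upper panel, colours saturate at the ends of the scale) and for the mean of 8 marker lists (lower panel, likewise), with libraries along the horizontal axis and black lines between groups. Srebf1 and Acacb are lowest in AD-3 and AD-HFD-3, where the oligodendrocyte mean is 8.09 and 7.28, and Acaca is below its mean in all 4 AD-HFD libraries. Sham-1 and Sham-4 have oligodendrocyte means below that of AD-3, 7.87 and 8.03, with Srebf1 at 57.9 and 64.9 CPM.

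The ratio of 2 genes' counts within a library does not depend on library size or scaling. Among the 28 ratios of the 8 genes, 9 did not overlap between AD and Sham, 2 between AD-HFD and AD, and 3 between AD-HFD and Sham. No such share was computed for ratios of other genes, and many of the 28 share a gene. These counts therefore have no background to be read against. The pairs below were picked after the values were seen and have no test. Fads1 to Fads2 was 3.54, 3.63, 3.72 and 3.78 in Sham, 2.33, 2.63, 3.05 and 2.13 in AD, and 4.30, 3.24, 3.16 and 3.54 in AD-HFD. The AD libraries were thus below all 8 others, and the group means were 3.67 ± 0.110, 2.53 ± 0.401 and 3.56 ± 0.518 (SD, n = 4). Beside Sham, AD thus had lower levels of the delta-5 desaturase without overlap and levels of the delta-6 desaturase that overlapped. AD-HFD had lower means of both than Sham, at a ratio that overlapped that of Sham. Among the AD libraries the Fads1 to Fads2 ratio was highest in AD-3, whose region markers were nearest to Sham. Its 3.05 was close to the 3.16 of AD-HFD-3 and still below the Sham range of 3.54 to 3.78. Ratios of 2.13 to 2.63 were found in the AD libraries with thalamus marker means of 4.17 to 6.34. How far brain region enters this ratio was not tested.

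Fasn to Acaca, the synthase against the carboxylase that feeds it, was 4.20, 3.89, 5.32 and 4.69 in Sham, 4.49, 5.43, 6.36 and 5.55 in AD, and 4.59, 6.28, 6.88 and 6.20 in AD-HFD. The groups overlapped, with means of 4.52 ± 0.622, 5.46 ± 0.766 and 5.99 ± 0.980 (SD, n = 4). AD-HFD-1, which had the lowest Fasn level of all, was the lowest AD-HFD library in this ratio too.

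**Figure D4:**
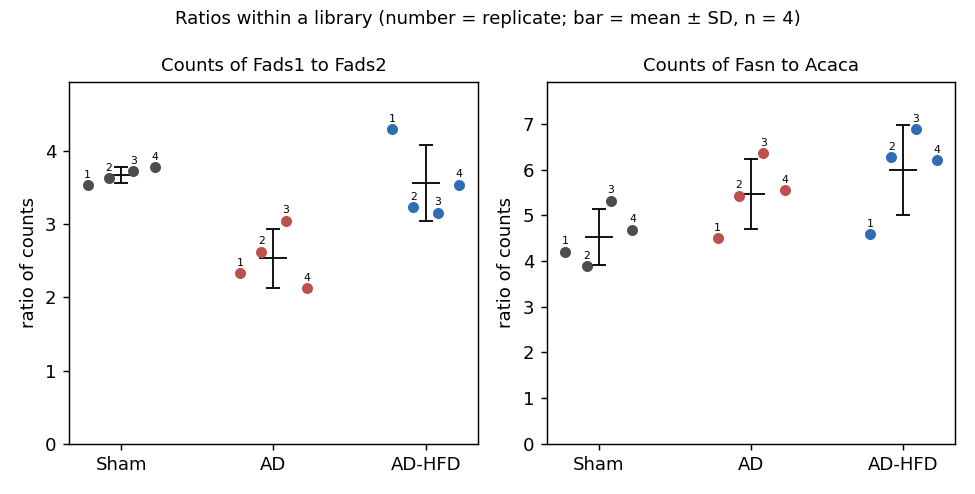
Ratio of counts of Fads1 to Fads2 (left) and of Fasn to Acaca (right) in each library, with the group mean and SD (n = 4) and axes from 0. The AD points for Fads1 to Fads2, 2.13 to 3.05, lie below the points of both other groups, while the groups overlap for Fasn to Acaca.

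The neighbouring steps of the route were followed in 51 further genes in 7 lists, of which 49 were in the table and 48 could be tested. In AD against Sham 1 of 48 was called, Mid1ip1, whose product promotes the polymerisation of acetyl-CoA carboxylase. Its Sham libraries held 69.4, 80.8, 107 and 83.1 CPM. Its AD libraries held 156, 144, 106 and 147 CPM. AD-3 lay inside the Sham range and the other AD libraries above it, and the log2 change was 0.70 ± 0.185 (edgeR adjusted p = 0.0455). The call did not hold without any 1 Sham library, nor without AD-1, nor without AD-2, nor without AD-4, nor without AD-HFD-2, nor by limma voom or the legacy method, nor with AD-3 as the only AD library. At an unadjusted p under 0.05 there were 14 of 48 beside 24.0% of all genes, and DESeq2 called 7 beside 13.9% of all genes.

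In the lists with no call, the gene with the smallest p in AD against Sham was Slc25a1 for acetyl-CoA and NADPH supply (0.65 ± 0.232, edgeR adjusted p = 0.116), Elovl1 among the other elongases (0.92 ± 0.378, 0.161) and Hacd1 among the other steps of elongation (1.09 ± 0.321, 0.0651). For the mitochondrial synthesis list it was Cbr4 (-0.79 ± 0.229, 0.0615), for the desaturases and their electron donors Cyb5b (-0.26 ± 0.118, 0.199), and for the acyl-CoA synthetases Acsl5 (-0.74 ± 0.267, 0.116). The median of the 48 was 0.11 beside 0.06 for all genes.

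In AD-HFD against AD none of the 48 was called by edgeR or limma voom. At an unadjusted p under 0.05 there were 12 beside 30.5% of all genes, and DESeq2 called 7 beside 17.7%. Tecr, the reductase that closes each elongation cycle, held 514, 637, 278 and 484 CPM in AD. It held 220, 268, 246 and 245 CPM in AD-HFD and did not overlap with AD, at -0.97 ± 0.210 (edgeR adjusted p = 0.0605). Fads6, a desaturase-like gene, stood at -1.99 ± 0.437 and the brain acyl-CoA synthetase gene Acsl6 at -1.05 ± 0.268 (both 0.0605). The liver X receptor gene Nr1h3, a direct activator of Srebf1 in other tissues, stood at 1.61 ± 0.459 (0.0643), Elovl2 at -0.87 ± 0.324 (0.103), Mlycd at -0.35 ± 0.175 (0.194) and Ndufab1 at -0.40 ± 0.151 (0.104). The median of the 48 was -0.04 beside 0.04 for all genes.

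In AD-HFD against Sham 14 of 48 were called, 8 higher and 6 lower, a share near the background of 32.7%, with a median of 0.02 beside 0.03 for all genes. Among the higher genes were Hacd1 (1.67 ± 0.317, edgeR adjusted p = 0.00442) and Hacd2 (0.55 ± 0.146, 0.0164), dehydratases of the elongation cycle, and the elongase genes Elovl1 (1.44 ± 0.382, 0.0157) and Elovl5 (0.62 ± 0.201, 0.0351). The citrate carrier gene Slc25a1 (0.77 ± 0.233, 0.0263), Prkaa1 (0.57 ± 0.174, 0.0276), which encodes a catalytic subunit of AMP-activated kinase, and Nr1h3 (1.98 ± 0.468, 0.0101) were also higher. Prkaa1 overlapped between the groups. Prkaa2, which encodes the other catalytic subunit, went the other way without overlap (-0.80 ± 0.294) and was not called by edgeR (adjusted p = 0.0538). DESeq2 and limma voom called Prkaa2 as lower (adjusted p = 0.0246 and 0.0411). Nr1h3 held 1.90, 2.24, 2.52 and 2.28 CPM in Sham and 6.54, 6.95, 2.66 and 19.1 CPM in AD-HFD. Its highest level was in AD-HFD-4, the library richest in red blood cell, endothelial and leptomeningeal markers, and the part of those cells was not tested.

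The lower genes were Tecr (-0.91 ± 0.210, edgeR adjusted p = 0.00910), Cbr4 (-1.14 ± 0.231, 0.00538) and Oxsm (-0.65 ± 0.146, 0.00812) of mitochondrial fatty acid synthesis, Fads6 (-1.65 ± 0.434, 0.0155), and the acyl-CoA synthetase genes Acsl3 (-0.61 ± 0.163, 0.0167) and Acsl6 (-1.29 ± 0.269, 0.00611). Cbr4 held 20.7, 18.3, 21.6 and 19.3 CPM in Sham, 14.7, 12.8, 6.65 and 12.0 CPM in AD, and 11.1, 7.62, 9.63 and 7.78 CPM in AD-HFD. Its Sham libraries were thus above all 8 others. Acsl6 held 302, 288, 261 and 279 CPM in Sham and 130, 113, 146 and 72.6 CPM in AD-HFD, without overlap.

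Of these 14 calls, those of Hacd1, Tecr, Fads6, Oxsm, Cbr4, Nr1h3 and Acsl6 held when any 1 of the 12 libraries was left out. Elovl1 and Acsl3 were lost only without Sham-1 and Hacd2 only without Sham-2, while Slc25a1, Elovl5 and Prkaa1 were each lost in 5 or more of these 12 fits. Without AD-HFD-1 and AD-HFD-4 together, Cbr4 was the only gene of these 14 still called. The calls of Hacd1, Tecr, Fads6, Oxsm, Nr1h3 and Acsl6 were lost there too. In that fit 2 of the 48 were called, Cbr4 and a gene outside these 14, beside 6.97% of all genes.

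**Figure D5:**
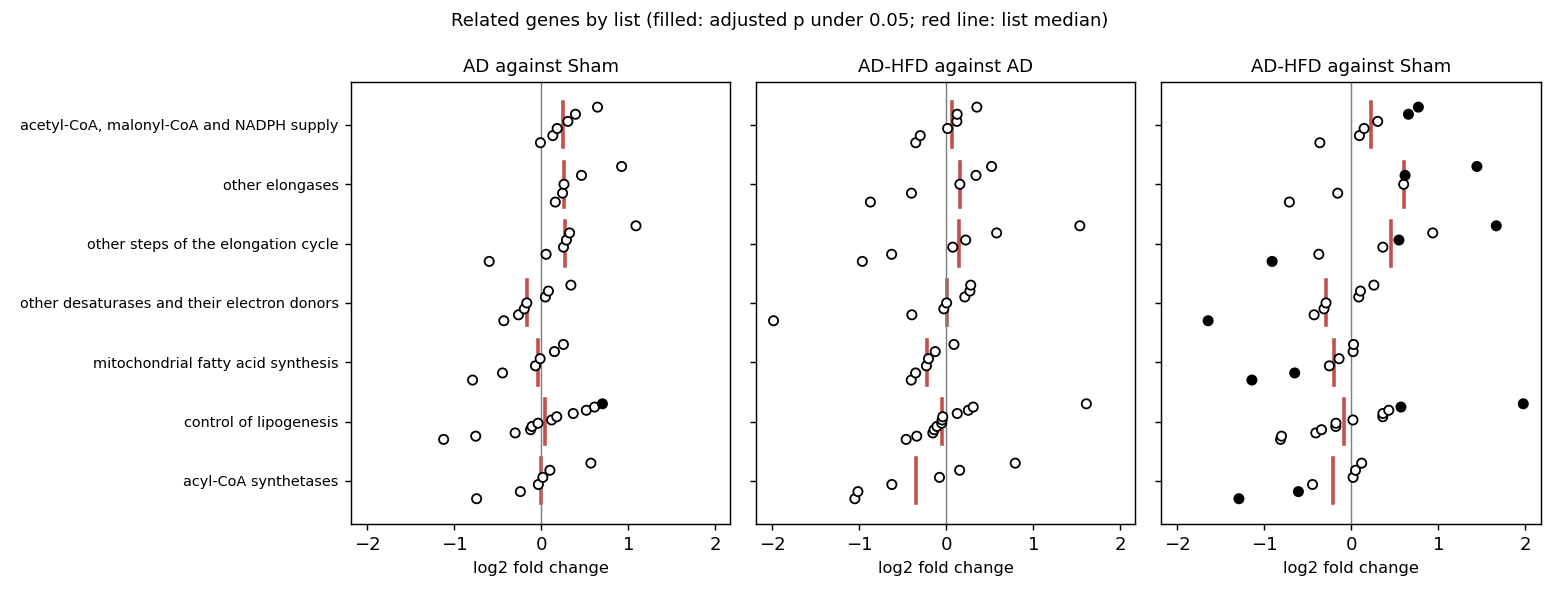
Fitted log2 fold change (horizontal axis) of the 48 tested related genes by list, one panel for each comparison, with filled points for edgeR calls and a red line at the list median. Filled points number 1, 0 and 14 from left to right, and in AD-HFD against Sham they lie on both sides of 0.

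For each of the 8 genes, the 3 genes with the most similar course over the 12 libraries were found among 13144 genes, by the root mean square difference in log2 CPM after centring each gene on its own mean. For Srebf1, whose own root mean square deviation was 0.455, they were Dusp3 (0.156), Dmpk (0.171) and Qdpr (0.178). For Acly (own deviation 0.171) they were Mrps27 (0.0892), Dolpp1 (0.0999) and Nap1l4 (0.104), and for Acaca (0.376) Agpat3 (0.144), Zfp169 (0.144) and Cldn12 (0.163). Agpat3 encodes an acyltransferase of phospholipid synthesis. For Acacb (0.827) they were Daam2 (0.238), Ehhadh (0.265) and Dusp15 (0.271), and for Fasn (0.331) Sik3 (0.108), Fam214b (0.131) and Map1lc3b (0.139). For Elovl6 (0.495) they included Pigg (0.225) and Khk (0.230), and they were for Fads1 (0.457) Atp6v1c2 (0.165), Hmmr (0.210) and Pcmtd2 (0.210), and for Fads2 (0.389) Coq3 (0.125), Crebrf (0.125) and Ptprd (0.127). The 12 libraries share groups and cell makeup, so these values describe likeness only.

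None of the 8 genes had another of the 8 among its 3 nearest. The closest pair among them was Acaca and Fasn at 0.253. Fads2 was nearest to Acaca at 0.266, Fads1 to Fads2 at 0.289 and Acly to Fasn at 0.290, the last of these against an own deviation of 0.171. Srebf1 was 0.443 from its nearest, Fads2, which is almost its own deviation of 0.455. Acacb was nearest to Srebf1 at 0.456, against its own 0.827, and Elovl6 to Fads2 at 0.381, against its own 0.495.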

How the data were processed

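Brain RNA from 3 groups of 4 libraries was analysed. Per the labels' protocols, TRIzol was used for the RNA and a Yeasen mRNA kit for the libraries. FastQC and Trimmomatic stand in the submitters' processing notes. The aligner, counting program, strand setting, build and annotation are not given in the sources used here. The authors deposited raw counts per gene in 1 table, whose symbols were used. Counts of overlapping genes may be shared.

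With edgeR 4.0.16 under R 4.3.3, filterByExpr kept 18850 genes (3223 of them unnamed new loci), which were scaled by TMM and fitted with 1 mean per group over all 12 libraries by the non-legacy quasi-likelihood method. A gene was called where its p, adjusted by Benjamini-Hochberg over all tested genes, was under 0.05. The SE is the log2 fold change divided by the square root of F. Log2 CPM used a prior count of 2. The biological coefficient of variation was 0.415, and total counts of 26668974 to 35351792 set the counting precision. The alternatives were DESeq2 1.42.0, limma 3.58.1 voom, the legacy method, other scalings and filters, the compared groups alone, the replicate number as a block, and libraries left out. Leaving out AD-HFD-1 and AD-HFD-4 together was chosen after seeing the data.

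The 8 genes and all lists were chosen with earlier results of these data known. Named from the 7 related lists were called genes (at most 4 a list and comparison) and, in a list without a call, the gene with the smallest p. Some genes that these rules take are left out of the text. Other genes and libraries singled out were chosen after their values were seen. No library pair agreed within sampling noise, with chi-square per degree of freedom from 18.0 to 480 within groups. The tests were checked on simulated counts. Promoter sequences are from RefSeq (GRCr8).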

Additional observations from a re-analysis of the deposited data

How the results depend on the processing

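Depth does not limit 7 of the 8 genes, which had at least 207 counts in every library, while Acacb had as few as 32. The 8 genes gave 600 values under alternatives, of which 561 kept direction and side of the threshold, 15 newly passed it, 3 no longer passed it and 21 changed sign, and no cause was tested. The number of the 8 genes called in AD against Sham was 0, but 2 with the compared groups alone, 1 without the pair AD-HFD-3 and AD-HFD-4 or the pair AD-HFD-1 and AD-HFD-4, and 0 to 1 with each library left out. In AD-HFD against AD it was 0, but 2 by DESeq2 and 0 to 3 with each library left out. In AD-HFD against Sham it was 1, but 0 without either pair, and 0 to 2 with each library left out. The fit with a replicate block called 2 there, adding Fads1 (-0.65, adjusted p = 0.0453), and changed no other call among the 8 genes. Of the related genes it called 0, 0 and 13, with Mid1ip1 in AD against Sham lost (0.70, adjusted p = 0.0867). The labels do not say that the numbers pair the libraries, deviations of same-numbered libraries correlated at -0.317 to 0.0947, and not every library correlated best with its own number. Of the related genes 1, 0 and 14 were called in the 3 comparisons, against 7, 7 and 18 by DESeq2 and 0 to 6, 0 to 11 and 8 to 19 with each library left out.

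Sign changes fell on values near 0 or on fits with few AD or AD-HFD libraries. For Acacb in AD against Sham (-0.01) the log2 change was 0.004084 by DESeq2, 0.0034 with RLE scaling, 0.026 with upper-quartile scaling, 0.0041 with library size only, 0.025 without a filter and -0.27 to 0.31 with each library left out. With AD-3 as the only AD library, AD against Sham was -1.95 for Acacb, -0.035 for Acaca and -0.38 for Elovl6, and AD-HFD against AD was 1.25 for Acacb, 0.26 for Elovl6, 0.045 for Fads2 and 0.58 for Srebf1. In AD-HFD against Sham, Acly was 0.043 with library size only and -0.14 to 0.0061 with each library left out, Elovl6 was 0.16 without the pair AD-HFD-3 and AD-HFD-4, -0.39 to 0.040 with each library left out, and Fasn was 0.048 without AD-HFD-1 and AD-HFD-4. Fads1 in AD-HFD against AD was -0.10 to 0.33 with each library left out.

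The number of all genes called in AD against Sham, 1174, became 2600 by DESeq2, 2363 with the compared groups alone, 2801 without AD-HFD-3 with AD-HFD-4, 1968 without AD-HFD-1 with AD-HFD-4, and 302 to 2329 with each library left out. In AD-HFD against AD, 2 became 3310 by DESeq2, 5 with the replicate block, 1896 without AD-HFD-3 with AD-HFD-4, 0 with the compared groups alone, 0 with AD-3 as the only AD library, 0 without AD-HFD-1 and AD-HFD-4, and 0 to 5841 with each library left out. In AD-HFD against Sham, 6162 became 7359 by DESeq2, 1379 without AD-HFD-1 and AD-HFD-4 and 3514 to 8615 with each library left out. Library size alone moved the median of all genes in AD-HFD against Sham from 0.03 to 0.10.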

Other observations

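Some genes of the related lists outside the naming rule were chosen here after their values were seen. Thrsp, a paralogue of Mid1ip1 tied to lipogenesis in liver, held 29.0, 22.4, 27.7 and 28.0 CPM in Sham, 18.0, 11.5, 14.6 and 4.97 CPM in AD, and 13.1, 21.1, 8.50 and 18.2 CPM in AD-HFD. Its Sham libraries were above all 8 others, with log2 changes of -1.12 ± 0.352 in AD and -0.81 ± 0.350 in AD-HFD against Sham (SE, n = 4 a group, edgeR adjusted p = 0.0793 and 0.0903). Insig1, which holds the precursor of the Srebf1 product in the endoplasmic reticulum, held 127, 153, 145 and 126 CPM in Sham, 172, 176, 272 and 170 CPM in AD, and 172, 202, 147 and 190 CPM in AD-HFD. Its AD libraries were above all Sham libraries, with a log2 change of 0.52 ± 0.175 (edgeR adjusted p = 0.0975).

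Fat tissue uses the same route, so adipocyte markers were also read. Lep had 0 counts in all 12 libraries. Adipoq had 162, 129 and 119 counts in Sham-2, Sham-3 and AD-HFD-1, the libraries with the highest choroid plexus marker sums, and 0 to 2 elsewhere. Plin1 had 40, 61 and 8 counts in replicates 1, 2 and 4 of AD, which had high thalamus markers, and 0 in the other 9. The 7 adipocyte markers summed to 3.59 to 9.23 CPM.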
